A study of Mus musculus with 9 samples.

Results

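The data are RNA-seq read counts of 10 genes around the fibroblast growth factor (FGF) receptors and the MAP kinase pathway, chosen by name from 55401 genes: the receptors Fgfr1 and Fgfr2, the Sprouty genes Spry2 and Spry4, the phosphatase genes Dusp4 and Dusp6, the ETS factor genes Etv4 and Etv5, and the Spred genes Spred1 and Spred2. All 10 passed the filter on low counts, among 15331 genes tested. They were measured in XEN cells, female mouse stem cells of extra-embryonic endoderm type, from a cross of Mus musculus molossinus with Mus musculus, grown in DMEM with serum. The main table holds 7 libraries: DXp, in which the label gives a deletion at Xist on the paternal X (n = 2), DXp_DXm, in which it is homozygous (n = 2), and the wild type WT_EV (n = 3). Another 2 wild-type libraries, WT_clone (clones 1 and 2), are in a separate table. Xist makes the RNA that silences 1 X chromosome in female cells, and the series places the deletions upstream of it. The titles name both DXp libraries D1 and both DXp_DXm libraries D3. What D1, D3 and EV stand for is not given, so if D1 and D3 are single lines, line and genotype cannot be told apart. The ends of the deletions are not given either, so no count here checks the genotype.

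FGF receptors are membrane tyrosine kinases that bind FGF ligands with heparan sulphate and switch on the RAS, RAF, MEK and ERK cascade. ERK raises its own brakes: Sprouty and Spred proteins act on RAS and RAF activation, dual-specificity phosphatases (DUSPs) remove phosphate from MAP kinases, and the PEA3 factors Etv4 and Etv5 are among the targets most often read as FGF output. In the early mouse embryo, FGF signalling through ERK directs inner cell mass cells towards primitive endoderm, the lineage from which XEN cells come.

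Total counts were 14352719 to 29335803 per library, and the common biological coefficient of variation was 33.7%. The deletion libraries stood apart from WT_EV in their RNA content. Rn7sk, a short RNA without a poly(A) tail, had 2 to 7 counts in the 4 deletion libraries and 157188 to 255029 counts in WT_EV. Histone genes took 0.00129% to 0.00686% of counts in the deletion libraries and 0.977% to 2.45% in WT_EV. Over all genes the change from WT_EV also moved with GC content, as described below. Every comparison with WT_EV is therefore given again with offsets for GC content and annotated exon length. What part this difference between libraries has in the results was not tested beyond those offsets. Of 9 markers of extra-embryonic endoderm, all were detected in every library except Col4a1, at 0 in DXp replicate 1. Their summed level was 5214 to 12015 CPM in DXp, 7540 to 10101 CPM in DXp_DXm and 17717 to 25771 CPM in WT_EV. The WT_EV sums rested mainly on Lama1 and Col4a1 (means of 9805 and 7809 CPM), and single markers differed in direction. Mean levels of Dab2 and Sox7 were higher than in WT_EV in both deletions, and those of Gata6 and Pdgfra in DXp only. Gata4, Sox17, Foxq1, Lama1 and Col4a1 had lower means in both. Marker sums of epiblast, trophoblast and fibroblasts stayed at or under 1.85 CPM in every library. Xist had 15447 and 17314 CPM in DXp, 5460 and 8951 CPM in DXp_DXm, and 689 to 1562 CPM in WT_EV. In a 9-library fit of shared genes, Xist was also higher in WT_clone than in WT_EV (log2 change 1.56, edgeR adjusted p = 0.0112). With offsets it missed the threshold of 0.05 (0.84, edgeR adjusted p = 0.0648). Against WT_clone, Xist was higher in DXp (1.998, edgeR adjusted p = 0.00408), but did not pass with offsets (0.90, edgeR adjusted p = 0.0946). In DXp_DXm against WT_clone it did not pass (0.79, edgeR adjusted p = 0.189, offsets 0.057, edgeR adjusted p = 0.962).

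Levels are TMM-scaled CPM (each count relative to the scaled total of its library), and a gene was called changed at an adjusted p under 0.05 from edgeR's quasi-likelihood test with Benjamini-Hochberg adjustment over all 15331 genes. In DXp against WT_EV, 2 of the 10 genes were higher (Spred1, Spred2), 5 were lower (Fgfr2, Spry2, Dusp4, Etv4, Etv5), and Fgfr1, Spry4 and Dusp6 did not pass. In the same comparison 72.3% of all tested genes were called, 32.2% higher and 40.1% lower, so 7 of 10 is a share near the background. In DXp_DXm against WT_EV, Spred1 and Spred2 were again higher and Fgfr1, Fgfr2, Dusp4, Etv4 and Etv5 lower, against a background of 66.8% called, 30.9% higher and 36.0% lower. Both comparisons share the WT_EV libraries. With offsets the calls in DXp were 2 higher (Dusp4, Spred2) and 4 lower (Fgfr2, Spry2, Etv4, Etv5) against a background of 51.7%, and in DXp_DXm 1 higher (Spred2) and 3 lower (Fgfr2, Etv4, Etv5) against 43.6%. Etv4, Etv5, Fgfr2 and Spred2 kept their direction and their call in both deletions under both scalings. The share of all tested genes that did so was not counted, so this joint count has no background.

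**Figure D1:**
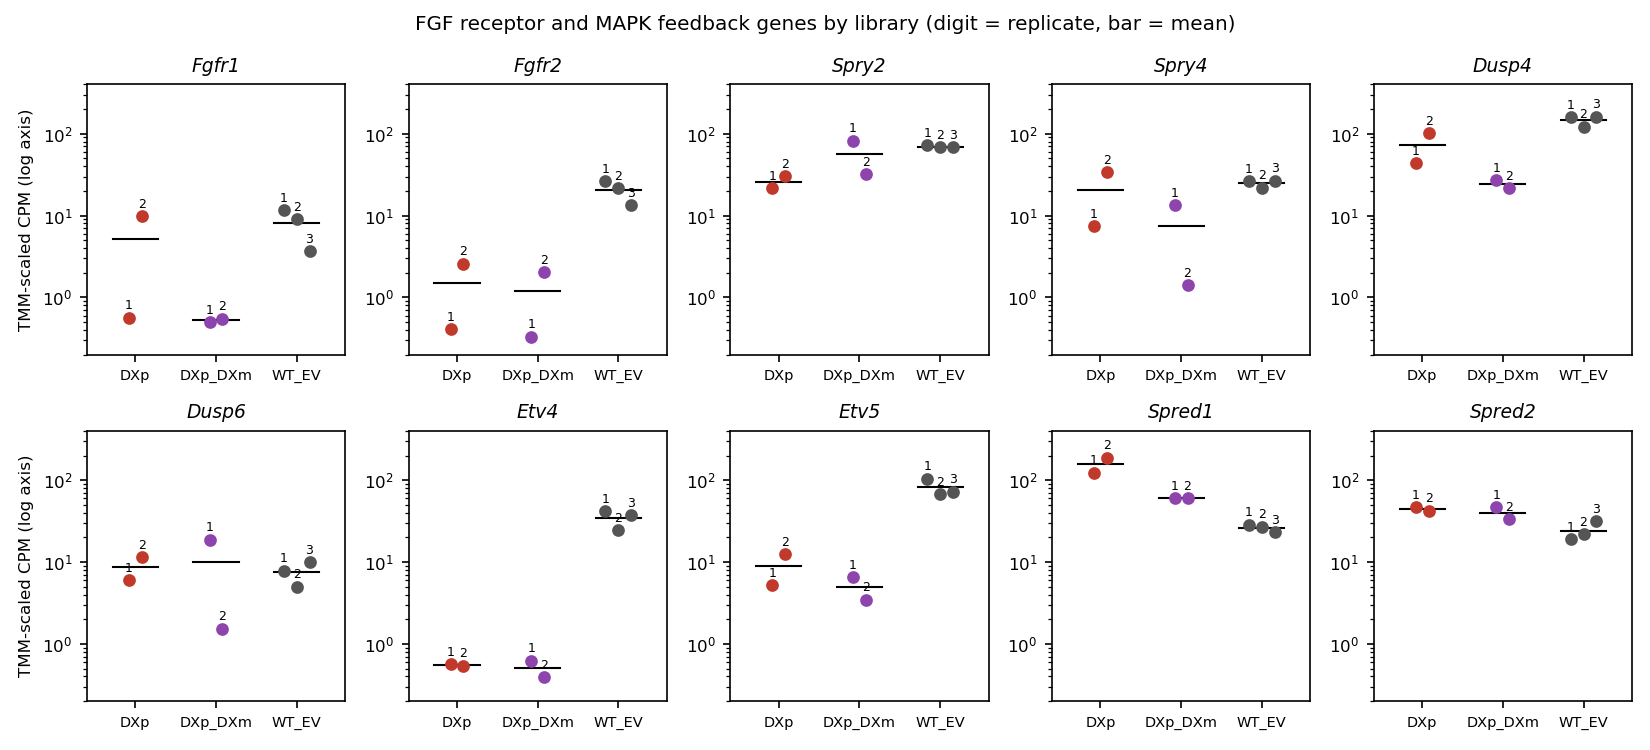
TMM-scaled CPM (log axis) of each of the 10 genes in the libraries of DXp (n = 2), DXp_DXm (n = 2) and WT_EV (n = 3). Each point is a library with its replicate number and each bar a group mean. Etv4, Etv5, Fgfr2 and Dusp4 lie lower in every deletion library than in any WT_EV library, and Spred1 and Spred2 lie higher. The share of all tested genes that separate in this way was not counted, so this has no background beside it. Points of 1 deletion group are far apart for Spry4, Fgfr2, Dusp6 (DXp_DXm) and Fgfr1 (DXp).

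Etv4 and Etv5 encode PEA3 transcription factors, ETS-family proteins whose genes are switched on by FGF and ERK signalling. Etv4 (ENSMUSG00000017724, chromosome 11, 101769742 to 101785371, minus strand, GRCm38) had 0.562 and 0.541 CPM in DXp, 0.622 and 0.393 CPM in DXp_DXm, and 41.7, 24.5 and 37.5 CPM in WT_EV. The 4 deletion libraries were all low and lay far below WT_EV, with no overlap. They rest on 10 to 15 counts each, against 581 to 741 counts in WT_EV. Etv4 fell 62.1-fold in DXp (log2 change -5.96, SE 0.45, edgeR adjusted p = 4.80e-06) and 67.6-fold in DXp_DXm (-6.08, SE 0.46, edgeR adjusted p = 8.34e-06). With offsets the falls were smaller, -2.67 in DXp (SE 0.42, edgeR adjusted p = 8.78e-04) and -2.97 in DXp_DXm (SE 0.42, edgeR adjusted p = 8.20e-04). Here, as for every gene below, bulk counts cannot tell apart fewer cells that express a gene and less RNA in each cell.

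Etv5 (ENSMUSG00000013089, chromosome 16, 22381309 to 22439719, minus strand) had 5.27 and 12.5 CPM in DXp, 6.55 and 3.46 CPM in DXp_DXm, and 104, 68.1 and 72.6 CPM in WT_EV. Every deletion library lay below every WT_EV library, and the deletion groups overlapped each other. Etv5 fell 9.15-fold in DXp (log2 change -3.19, SE 0.46, edgeR adjusted p = 1.51e-04) and 16.3-fold in DXp_DXm (-4.03, SE 0.48, edgeR adjusted p = 6.65e-05). The offset values were -2.10 in DXp (SE 0.38, edgeR adjusted p = 0.00172) and -3.23 in DXp_DXm (SE 0.40, edgeR adjusted p = 4.65e-04). Without DXp replicate 1 the DXp value was -2.59, and without replicate 2 it was -3.94. Leaving out each of the 7 libraries in turn kept both genes lower and past the threshold in both comparisons. In the offset fit this held as well, with Etv4 between -2.90 and -2.39 in DXp and between -3.43 and -2.69 in DXp_DXm, and Etv5 between -2.71 and -1.74 in DXp and between -3.69 and -2.93 in DXp_DXm.

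RefSeq gives promoter windows (250 bases before to 50 after a start, GRCm38.p6) for 6 of the 10 genes in the table used here. The windows of Etv5, Dusp6, Spred1 and Spred2 are shown because these genes were lower (Etv5), did not pass (Dusp6) or were higher (Spred1, Spred2), and because ETS factors such as Etv4 and Etv5 bind a short core. Capitals mark the ETS core CGGAAG on either strand, which reads CTTCCG where the match is on the other strand. The Etv5 window is chr16:22439521-22439820 (minus strand), the Dusp6 window chr10:99262981-99263280, the Spred1 window chr2:117120821-117121120 and the Spred2 window chr11:19924192-19924491 (all plus strand).
Etv5 promoter: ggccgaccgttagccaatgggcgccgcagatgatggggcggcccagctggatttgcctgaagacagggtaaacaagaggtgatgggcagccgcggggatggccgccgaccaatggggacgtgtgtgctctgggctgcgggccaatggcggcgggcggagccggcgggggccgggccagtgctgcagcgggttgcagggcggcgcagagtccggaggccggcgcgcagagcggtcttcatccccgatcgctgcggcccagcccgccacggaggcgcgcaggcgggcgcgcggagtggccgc
Dusp6 promoter: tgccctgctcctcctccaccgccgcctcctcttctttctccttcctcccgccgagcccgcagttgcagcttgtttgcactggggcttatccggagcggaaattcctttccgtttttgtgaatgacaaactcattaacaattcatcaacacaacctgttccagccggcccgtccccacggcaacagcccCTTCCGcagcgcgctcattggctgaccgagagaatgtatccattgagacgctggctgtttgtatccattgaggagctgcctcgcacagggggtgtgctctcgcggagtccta
Spred1 promoter: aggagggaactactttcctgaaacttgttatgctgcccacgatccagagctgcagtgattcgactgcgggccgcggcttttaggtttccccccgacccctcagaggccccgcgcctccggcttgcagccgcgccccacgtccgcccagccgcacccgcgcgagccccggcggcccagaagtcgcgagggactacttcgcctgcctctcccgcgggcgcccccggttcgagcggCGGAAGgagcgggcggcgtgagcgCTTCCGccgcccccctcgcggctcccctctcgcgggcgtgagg
Spred2 promoter: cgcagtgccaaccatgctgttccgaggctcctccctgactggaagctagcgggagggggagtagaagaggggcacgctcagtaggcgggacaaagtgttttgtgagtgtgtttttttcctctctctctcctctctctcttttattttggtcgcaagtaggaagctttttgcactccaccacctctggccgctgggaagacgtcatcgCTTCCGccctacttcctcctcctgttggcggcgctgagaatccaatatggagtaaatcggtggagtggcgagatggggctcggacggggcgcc
The core was in 16.9% of all 32851 promoter windows. The Spred1 window held 1 match on the gene's strand and 1 on the other strand, and the windows of Spred2 and Dusp6 held 1 each, on the other strand. Neither of the Etv5 windows, nor those of Fgfr2 and Spry2, held these letters. The AP-1 motif TGANTCA, in 7.81% of all windows, and the CRE motif TGACGTCA, in 1.79%, searched on both strands, were in none of the windows of these genes. A match is only a run of letters and shows no binding.

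The receptors had the lowest mean levels per kb of annotated exon of the 10 genes in WT_EV, where the range of Fgfr2 overlapped that of Dusp6. Fgfr2 (ENSMUSG00000030849, chromosome 7, minus strand), the receptor with an epithelial and a mesenchymal splice form, had 0.409 and 2.59 CPM in DXp, 0.332 and 2.04 CPM in DXp_DXm, and 26.2, 21.5 and 13.4 CPM in WT_EV. All deletion libraries lay below WT_EV, although the libraries of each deletion differed 6.32-fold in DXp and 6.16-fold in DXp_DXm. Fgfr2 fell 13.3-fold in DXp (log2 change -3.73, SE 0.90, edgeR adjusted p = 0.00463) and 17.0-fold in DXp_DXm (-4.09, SE 0.92, edgeR adjusted p = 0.00367). Offsets hardly moved these values, to -3.76 in DXp (SE 0.86, edgeR adjusted p = 0.00669) and -4.14 in DXp_DXm (SE 0.88, edgeR adjusted p = 0.00613). Single libraries moved the size and not the call: without DXp replicate 1 the DXp value was -2.86 and without replicate 2 it was -5.61, and without DXp_DXm replicate 1 the DXp_DXm value was -3.23 and without replicate 2 it was -5.90. With offsets and 1 library left out, the value ran from -5.42 to -3.10 in DXp and from -6.04 to -3.38 in DXp_DXm, always past the threshold. Fgfr2 shares 314 of its 10328 exon bases with Ctbp2 on the same strand, so a small part of its counts is uncertain.

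Fgfr1 (ENSMUSG00000031565, chromosome 8, 25513654 to 25575718, plus strand), the receptor through which FGF4 acts broadly in the early embryo, had 0.562 and 9.81 CPM in DXp, 0.498 and 0.550 CPM in DXp_DXm, and 11.6, 9.07 and 3.66 CPM in WT_EV. DXp replicate 2 lay within the WT_EV range, while DXp replicate 1 was as low as both DXp_DXm libraries, a 17.4-fold difference within DXp. In DXp the log2 change was -0.64 (interval -2.71 to 1.43, edgeR adjusted p = 0.546). It was 0.39 without DXp replicate 1 and -3.82, past the threshold (edgeR adjusted p = 0.00483), without DXp replicate 2. In DXp_DXm Fgfr1 fell 15.3-fold (-3.94, SE 1.11, edgeR adjusted p = 0.0118). That call was lost with offsets (-2.10, edgeR adjusted p = 0.106) and without either DXp_DXm replicate 1 (-3.79, edgeR adjusted p = 0.0896) or replicate 2 (-3.999, edgeR adjusted p = 0.0860). With offsets it passed as lower in DXp_DXm without DXp replicate 1 or 2 (-2.18 each, edgeR adjusted p = 0.0109 and edgeR adjusted p = 0.0128). The offset value in DXp was 1.17 (edgeR adjusted p = 0.255), with 1.98 without DXp replicate 1 (edgeR adjusted p = 0.0185) and -1.83 without DXp replicate 2 (edgeR adjusted p = 0.0750). Of the Fgfr1 exon bases, 164 lie opposite the antisense gene Gm16159, and the strand setting of the counting is not given.

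Spred1 and Spred2 encode membrane proteins that bind neurofibromin and hold back RAS. Spred1 (ENSMUSG00000027351, chromosome 2, 117121374 to 117182279, plus strand) had 123 and 190 CPM in DXp, 60.1 and 60.7 CPM in DXp_DXm, and 28.7, 27.0 and 23.2 CPM in WT_EV. The 3 groups did not overlap, with DXp highest and WT_EV lowest. Spred1 rose 5.95-fold in DXp (log2 change 2.57, SE 0.25, edgeR adjusted p = 1.45e-05) and 2.29-fold in DXp_DXm (1.20, SE 0.25, edgeR adjusted p = 0.00194). Its transcript has the lowest GC content of the 10 genes, 41.2%, and with offsets neither call held, at 0.68 in DXp (SE 0.28, edgeR adjusted p = 0.0711) and -0.31 in DXp_DXm (SE 0.29, edgeR adjusted p = 0.407). Without DXp replicate 1 the offset value in DXp was 1.08 (edgeR adjusted p = 0.0198).

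Spred2 (ENSMUSG00000045671, chromosome 11, 19924375 to 20024026, plus strand) had 47.1 and 42.7 CPM in DXp, 46.7 and 33.2 CPM in DXp_DXm, and 19.2, 21.8 and 31.4 CPM in WT_EV. Each deletion library lay above all of WT_EV, DXp_DXm replicate 2 only just. Spred2 rose 1.86-fold in DXp (log2 change 0.90, SE 0.29, edgeR adjusted p = 0.0181) and 1.65-fold in DXp_DXm (0.73, SE 0.29, edgeR adjusted p = 0.0476). These calls sat near the threshold. The DXp call was lost without DXp replicate 1 (0.93, edgeR adjusted p = 0.0528), WT_EV replicate 1 (0.73, edgeR adjusted p = 0.0757) or WT_EV replicate 2 (0.80, edgeR adjusted p = 0.0697). The DXp_DXm call was lost without DXp replicate 2 (0.74, edgeR adjusted p = 0.0536), DXp_DXm replicate 1 (0.54, edgeR adjusted p = 0.208), WT_EV replicate 1 (0.57, edgeR adjusted p = 0.165) or WT_EV replicate 2 (0.64, edgeR adjusted p = 0.146), and with protein-coding genes other than histones alone (0.67, edgeR adjusted p = 0.0651). With offsets the changes were larger, 1.74 in DXp (SE 0.30, edgeR adjusted p = 0.00125) and 1.25 in DXp_DXm (SE 0.29, edgeR adjusted p = 0.00831). The offset call in DXp held without any 1 library (edgeR adjusted p at most 0.0133), and in DXp_DXm it was lost without DXp_DXm replicate 1 (1.05, edgeR adjusted p = 0.0531).

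**Figure D2:**
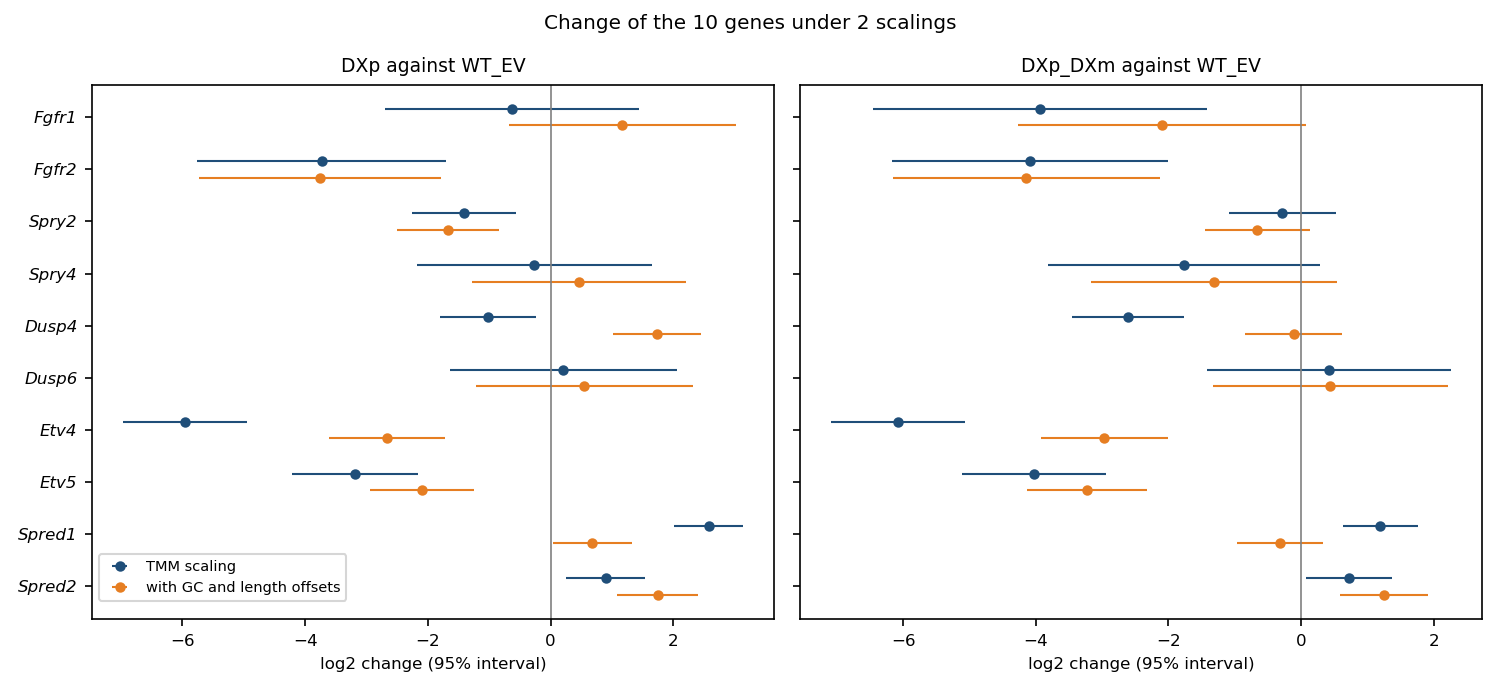
Log2 change of each of the 10 genes in DXp against WT_EV and in DXp_DXm against WT_EV, with 95% intervals, under TMM scaling (blue) and with offsets for GC content and length (orange). Etv4, Etv5 and Fgfr2 stay left of 0 and Spred2 right of 0 in both panels under both scalings, and Dusp4 in DXp changes sides, at -1.02 and 1.73.

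Dusp4 and Dusp6 encode MAP kinase phosphatases, Dusp4 in the nucleus and Dusp6 in the cytoplasm, where it prefers ERK. Dusp4 (ENSMUSG00000031530, chromosome 8, 34807297 to 34819894, plus strand) had 43.8 and 102 CPM in DXp, 26.9 and 21.5 CPM in DXp_DXm, and 160, 122 and 162 CPM in WT_EV. The groups did not overlap, with DXp_DXm lowest and DXp between it and WT_EV. Dusp4 fell 2.03-fold in DXp (log2 change -1.02, SE 0.35, edgeR adjusted p = 0.0230) and 6.12-fold in DXp_DXm (-2.61, SE 0.38, edgeR adjusted p = 2.04e-04). Its transcript holds 56.0% GC, and the direction in DXp depended on the scaling: with offsets Dusp4 was higher in DXp (1.73, SE 0.32, edgeR adjusted p = 0.00190), while the DXp_DXm value missed the threshold (-0.11, SE 0.33, edgeR adjusted p = 0.809). Under TMM scaling the DXp call was lost without DXp replicate 1 (-0.43, edgeR adjusted p = 0.262) or WT_EV replicate 1 (-0.98, edgeR adjusted p = 0.0562), and the value was -1.75 without DXp replicate 2. With offsets the DXp value was 1.08 without DXp replicate 2 (edgeR adjusted p = 0.0266) and stayed past the threshold without any 1 library.

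Dusp6 (ENSMUSG00000019960, chromosome 10, 99263231 to 99267489, plus strand) had 6.03 and 11.4 CPM in DXp, 18.8 and 1.53 CPM in DXp_DXm, and 7.82, 5.02 and 9.96 CPM in WT_EV. DXp overlapped WT_EV, and DXp_DXm held both the highest and the lowest library of the 7, which differed 12.3-fold. The log2 change was 0.20 in DXp (interval -1.65 to 2.06, edgeR adjusted p = 0.831) and 0.42 in DXp_DXm (interval -1.42 to 2.26, edgeR adjusted p = 0.665). The value turned with the DXp_DXm library kept, at -2.22 without replicate 1 (edgeR adjusted p = 0.0173) and 1.32 without replicate 2 (edgeR adjusted p = 0.0478). In these fits, as wherever 1 of 2 libraries of a deletion is left out, the lone library is assumed to vary like the other groups, so such a p carries no spread of its own group. In DXp the sign also turned without DXp replicate 2 (-0.32) and without WT_EV replicate 2 (-0.047). The offset values were 0.55 in DXp and 0.44 in DXp_DXm, neither past the threshold, and -2.12 in DXp_DXm without replicate 1 (edgeR adjusted p = 0.0276).

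Spry2 and Spry4 encode Sprouty proteins, which receptor signalling induces and which block the step to RAS and RAF. Spry2 (ENSMUSG00000022114, chromosome 14, 105891947 to 105896819, minus strand) had 21.5 and 30.5 CPM in DXp, 82.4 and 32.1 CPM in DXp_DXm, and 71.9, 68.0 and 68.5 CPM in WT_EV. DXp lay below WT_EV, and the DXp_DXm libraries lay on either side of it. Spry2 fell 2.67-fold in DXp (log2 change -1.41, SE 0.38, edgeR adjusted p = 0.00700), and also with offsets (-1.67, SE 0.37, edgeR adjusted p = 0.00483). Under TMM scaling the call was lost without DXp replicate 1 (-1.07, edgeR adjusted p = 0.0783), and with offsets it held without any 1 library (edgeR adjusted p at most 0.0476). In DXp_DXm it did not pass (-0.28, interval -1.09 to 0.53, edgeR adjusted p = 0.515). It passed there as lower without replicate 1 (-1.03, edgeR adjusted p = 0.0257), and the value was 0.26 without replicate 2. With offsets it was -0.66 (edgeR adjusted p = 0.160), and -1.40 without replicate 1 (edgeR adjusted p = 0.0113).

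Spry4 (ENSMUSG00000024427, chromosome 18) had 7.36 and 34.2 CPM in DXp, 13.3 and 1.41 CPM in DXp_DXm, and 26.4, 22.0 and 26.6 CPM in WT_EV. DXp lay on either side of the narrow WT_EV range, and both DXp_DXm libraries lay below it. The log2 change was -0.26 in DXp (interval -2.18 to 1.65, edgeR adjusted p = 0.788) and -1.77 in DXp_DXm (interval -3.81 to 0.28, edgeR adjusted p = 0.111). Without DXp replicate 1 the DXp value was 0.56. In DXp_DXm DESeq2 called it lower (-1.75, DESeq2 adjusted p = 0.0215), and without DXp_DXm replicate 1 the value of the lone library was -4.06 (edgeR adjusted p = 0.00588, with the spread taken from the other groups). With offsets it was 0.46 in DXp and -1.32 in DXp_DXm, neither past the threshold (edgeR adjusted p = 0.641 and edgeR adjusted p = 0.219), and -3.57 in DXp_DXm without replicate 1 (edgeR adjusted p = 0.0149).

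Levels were also divided by the length of all annotated exons of a gene, in kb, without correction for GC content. They order the genes only roughly, because that length can exceed the length of the transcripts made. In DXp, Dusp4 had 26.6 ± 15.0 CPM per kb (SD, n = 2) and Spred1 23.1 ± 6.93, overlapping, followed by Spry2 at 12.5 ± 3.05 and Spred2 at 9.72 ± 0.686. In DXp_DXm, Spry2 led with 27.4 ± 17.0 CPM per kb (SD, n = 2), and Spred1, Dusp4 and Spred2 followed at 8.90 ± 0.0631, 8.82 ± 1.39 and 8.65 ± 2.07, which overlapped as neighbours. In WT_EV the order was Dusp4 at 54.04 ± 8.13 CPM per kb (SD, n = 3), Spry2 at 33.3 ± 1.03, Etv5 at 19.9 ± 4.79 and Etv4 at 11.1 ± 2.89, each apart from the next. The middle of the WT_EV order, Spry4 at 5.26 ± 0.546, Spred2 at 5.23 ± 1.40 and Spred1 at 3.88 ± 0.414 CPM per kb, overlapped as neighbours. Fgfr1 had the lowest mean in DXp_DXm (0.0530 ± 0.00375 CPM per kb), where it overlapped Fgfr2, and in WT_EV (0.821 ± 0.411), and Fgfr2 the lowest mean in DXp (0.145 ± 0.149), where it overlapped Etv4. Etv5 took rank 3 in WT_EV and rank 7 in both DXp (2.17 ± 1.25) and DXp_DXm (1.22 ± 0.533).

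Libraries of 1 deletion genotype differed widely for several of the 10 genes. DXp replicate 2 was higher than replicate 1 for 8 of 10 genes, and 5 genes differed over 2-fold between the pair, led by Fgfr1, Fgfr2 and Spry4 (4.65-fold). Their median absolute log2 difference was 1.07, against 0.46 over all tested genes, of which 51.5% were higher in replicate 2. In DXp_DXm, replicate 1 was higher for 7 of 10 genes and 4 differed over 2-fold, led by Dusp6, Spry4 (9.41-fold) and Fgfr2, with a median absolute log2 difference of 0.76 against 0.46 over all genes. Within WT_EV, at most 1 gene differed over 2-fold in any pair of libraries. Spred1 in DXp_DXm and Etv4 in DXp were among the closest pairs, differing by 0.014 and 0.053 on the log2 scale.

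The change from WT_EV moved with the GC content of the transcript across all genes. In DXp the median log2 change was 2.03 over genes under 42% GC, 1.05 from 42% to 48%, -0.97 from 48% to 54% and -3.44 over 54%. In DXp_DXm the same medians were 1.61, 0.98, -0.59 and -3.05. Spred1 was in the lowest class and Etv4, Dusp4 and Fgfr1 in the highest, so the signs of Spred1 and Etv4 were those of their class medians. Fgfr2 (50.2% GC), Etv5 (51.8%), Spry2 (46.2%) and Etv4 had lower log2 changes in DXp than the medians of their classes. Spred2 (51.2%), Dusp4, Spred1, Fgfr1, Spry4 and Dusp6 had higher ones. These are descriptions of position, with no test.

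**Figure D3:**
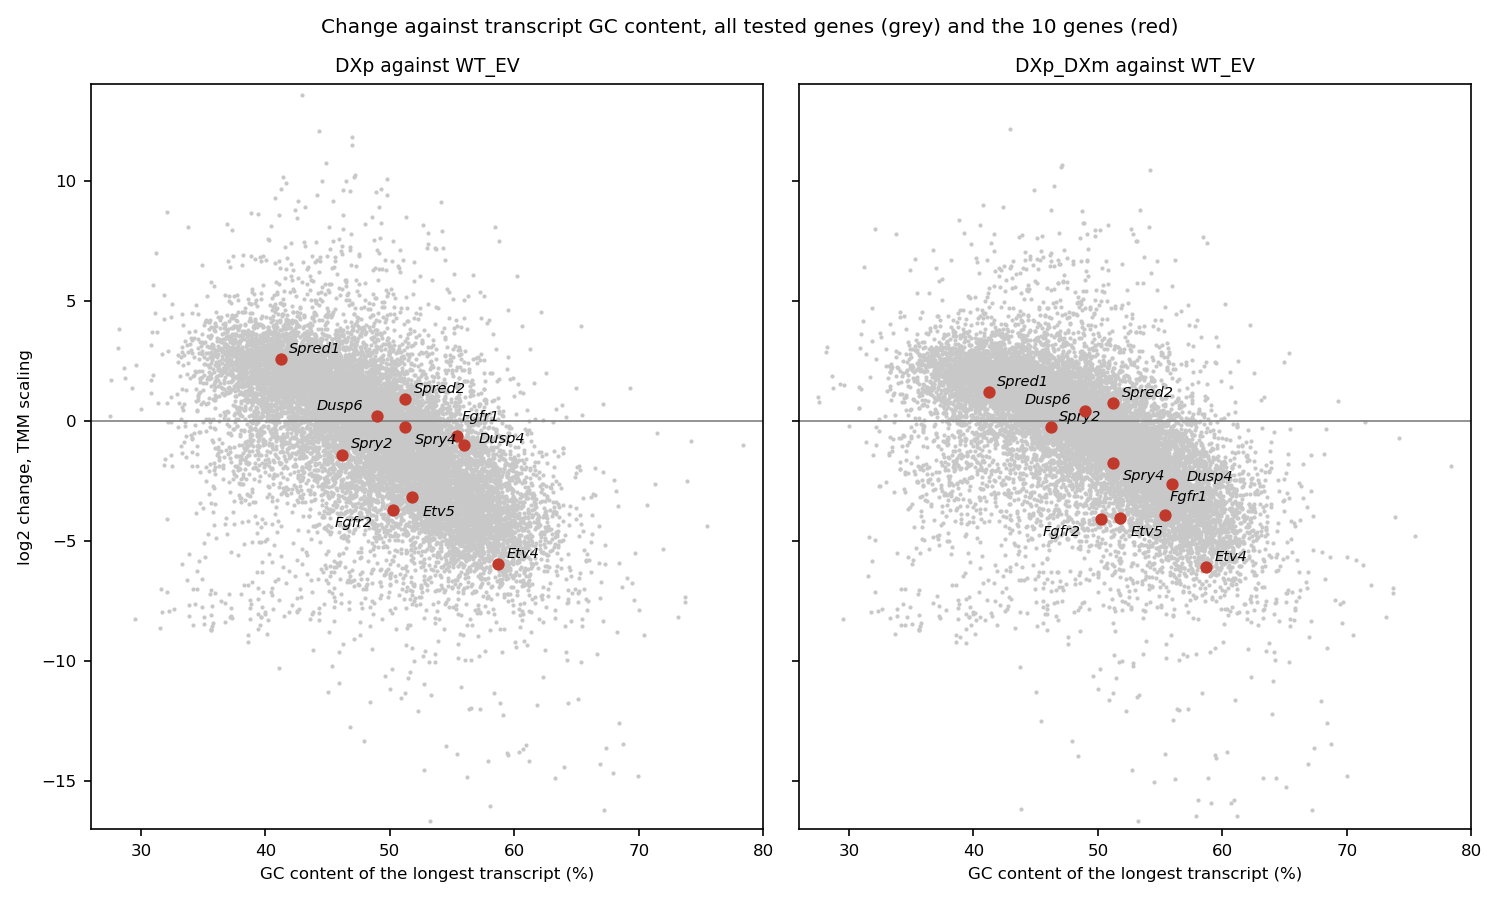
Log2 change under TMM scaling against the GC content of the longest transcript (percent) for all tested genes with a GC value (grey) and the 10 genes (red), in DXp against WT_EV (left) and DXp_DXm against WT_EV (right). The grey cloud falls from left to right, with medians of 2.03 under 42% GC and -3.44 over 54% GC in DXp, and Fgfr2 and Etv5 lie near its lower side.

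Between the deletions, none of the 10 genes was called in DXp_DXm against DXp by edgeR, where 0.444% of all genes were called (0.235% with offsets, again none of the 10). Of the 10, 4 had an unadjusted p under 0.05 in edgeR, as had 3196 of all 15331 genes tested. Spred1 was lower in both DXp_DXm libraries than in either DXp library (log2 change -1.37, SE 0.28, unadjusted p = 6.42e-04, edgeR adjusted p = 0.0611). Dusp4 was likewise lower in both (-1.59, SE 0.38, unadjusted p = 0.00191, edgeR adjusted p = 0.0704). Fgfr1 differed by -3.30 (SE 1.13, unadjusted p = 0.0168, edgeR adjusted p = 0.150) and Spry2 by 1.14 (SE 0.40, unadjusted p = 0.0181, edgeR adjusted p = 0.155). Their libraries nearly met, with 0.562 CPM in DXp replicate 1 close above 0.550 CPM in DXp_DXm for Fgfr1. The Fgfr1 value was -0.10 without DXp replicate 2 and -4.25 without DXp replicate 1, and that of Spry2 was 0.30 without DXp_DXm replicate 1 and 1.66 without DXp_DXm replicate 2, none past the threshold. The offset values of Dusp4 and Spred1 were -1.84 (edgeR adjusted p = 0.0627) and -0.99 (edgeR adjusted p = 0.147). Without WT_EV replicate 3 the offset value of Dusp4 passed (-1.84, edgeR adjusted p = 0.0444), and over all libraries left out in turn it ran from -2.25 to -1.25. DESeq2 called 3 of the 10, Fgfr1 (-3.36, DESeq2 adjusted p = 0.00794), Dusp4 (-1.68, DESeq2 adjusted p = 0.00188) and Spred1 (-1.47, DESeq2 adjusted p = 3.40e-04), where it called 7.70% of all genes. Without the filter on low counts edgeR called 4 of the 10, the same genes and Spry2, with 5.18% of 27732 genes called, so the calls depended on the test and on the filter. In edgeR, Spred1 passed without WT_EV replicate 3 (-1.37, edgeR adjusted p = 0.0396). Etv4 and Etv5 overlapped between the deletions, with log2 differences of -0.12 (interval -1.16 to 0.92) and -0.83 (interval -1.85 to 0.18).

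The rest of the pathway was listed as 90 genes in 5 groups, of which 68 were tested. In DXp 21 were higher and 24 lower, with a median log2 change of 0.11 against -0.35 over all genes, and in DXp_DXm 21 were higher and 21 lower, with a median of -0.19 against -0.15. These are 45 and 42 of 68, again near the backgrounds of 72.3% and 66.8%. With offsets 23 were higher and 9 lower in DXp, and 18 higher and 10 lower in DXp_DXm, against backgrounds of 24.9% higher and 26.7% lower, and 21.9% higher and 21.7% lower. The median log2 change of the 10 genes themselves was -0.83 in DXp and -2.19 in DXp_DXm, or 0.50 and -0.99 with offsets.

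Among the 21 tested genes of 22 from the adaptors to ERK, 11 were higher and 8 lower in DXp, and 10 higher and 7 lower in DXp_DXm. With offsets 8 were higher and 3 lower in DXp, and 7 higher and 3 lower in DXp_DXm. The counts of this list and of the lists below stand against the same backgrounds of 72.3% and 66.8% called, or 51.7% and 43.6% with offsets. Map2k2, the gene of the ERK kinase MEK2, had 1.33 and 1.43 CPM in DXp, 1.66 and 1.14 CPM in DXp_DXm, and 84.5, 81.7 and 58.1 CPM in WT_EV. It fell by 5.75 in DXp and fell by 5.74 in DXp_DXm on the log2 scale (offsets -2.65 and -2.63), all past the threshold. Braf, a RAF kinase gene, had 673 and 549 CPM in DXp, 368 and 542 CPM in DXp_DXm, and 69.1, 87.5 and 86.1 CPM in WT_EV. It rose by 2.92 in DXp and 2.49 in DXp_DXm on the log2 scale, or by 0.98 and 0.97 with offsets. Sos1 and Sos2, which load RAS with GTP, rose in DXp by 3.04 and 3.05, or by 0.92 and 1.60 with offsets. In DXp_DXm they rose by 1.97 and 1.88, and their offset values of 0.32 and 0.64 did not pass (edgeR adjusted p = 0.254 and edgeR adjusted p = 0.0966). In DXp_DXm the docking protein gene Frs2, which links FGF receptors to the cascade, rose by 3.36 (offsets 2.20) and Hras fell by 4.14 (offsets -1.99).

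Other negative regulators held 3 higher and 4 lower of 16 tested in DXp, and 3 higher and 5 lower in DXp_DXm. With offsets they held 6 higher and 2 lower in DXp, and 4 higher and 2 lower in DXp_DXm. Dusp9, an ERK phosphatase gene, had 5.73 and 8.26 CPM in DXp, 11.9 and 8.37 CPM in DXp_DXm, and 524, 447 and 286 CPM in WT_EV. It fell by 5.90 in DXp and fell by 5.37 in DXp_DXm on the log2 scale (offsets -2.53 and -2.18). In the 9-library fit Dusp9 was also lower in WT_clone than in WT_EV (-1.83, edgeR adjusted p = 0.00445), but did not pass with offsets (-0.76, edgeR adjusted p = 0.0691). Against WT_clone it was lower in DXp (-4.45, offsets -2.21) and in DXp_DXm (-3.95, offsets -1.85), all past the threshold. Lztr1, an adaptor for RAS degradation, fell by 3.48 in DXp and fell by 3.25 in DXp_DXm (offsets -1.87 and -1.85). Rasa1, a RAS GTPase activator, rose by 3.28 in DXp and 2.49 in DXp_DXm (offsets 1.42 and 1.01). Pebp1, an inhibitor of RAF, fell by 3.31 in DXp and fell by 2.84 in DXp_DXm, while its offset values of -0.24 and -0.058 did not pass.

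Other ERK targets held 3 higher and 7 lower of 17 tested in DXp, and 4 higher and 5 lower in DXp_DXm, while with offsets 5 were higher and 3 lower in each. Rps6ka3, the gene of the ERK-activated kinase RSK2, had 285 and 363 CPM in DXp, 121 and 124 CPM in DXp_DXm, and 5.29, 8.52 and 14.3 CPM in WT_EV, while Rps6ka1, the gene of RSK1, had 5.68 and 4.48 CPM in DXp, 6.10 and 7.19 CPM in DXp_DXm, and 154, 146 and 94.1 CPM in WT_EV. In DXp Rps6ka3 rose by 5.11 (offsets 3.10) and Rps6ka1 fell by 4.70 (offsets -1.82) on the log2 scale. In the 9-library fit Rps6ka3 was also higher in WT_clone than in WT_EV (2.20, edgeR adjusted p = 0.00344, offsets 1.75, edgeR adjusted p = 0.00632). Against WT_clone it was higher in DXp (2.53, edgeR adjusted p = 8.94e-04, offsets 1.40, edgeR adjusted p = 0.0265). In DXp_DXm against WT_clone it did not pass (1.10, edgeR adjusted p = 0.0644, offsets 0.38, edgeR adjusted p = 0.574). Cic, a repressor of the PEA3 genes that ERK relieves, fell by 4.52 in DXp and fell by 4.82 in DXp_DXm (offsets -1.61 and -1.78). Mknk2, a kinase gene downstream of ERK, fell by 3.88 in DXp and fell by 4.18 in DXp_DXm, with offset values of -0.48, which did not pass, and -0.87. Srf fell by 4.58 in DXp_DXm, and its offset value of -0.82 did not pass. Fos, an immediate early gene, had 181 and 170 CPM in DXp, 2.65 and 3.38 CPM in DXp_DXm, and 1.91, 0.970 and 10.8 CPM in WT_EV. Fos was called higher in DXp against WT_EV (5.29, edgeR adjusted p = 6.80e-04, offsets 6.75, edgeR adjusted p = 6.63e-04). Its log2 difference of DXp_DXm against DXp was -5.86, which did not pass (edgeR adjusted p = 0.0590).

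**Figure D4:**
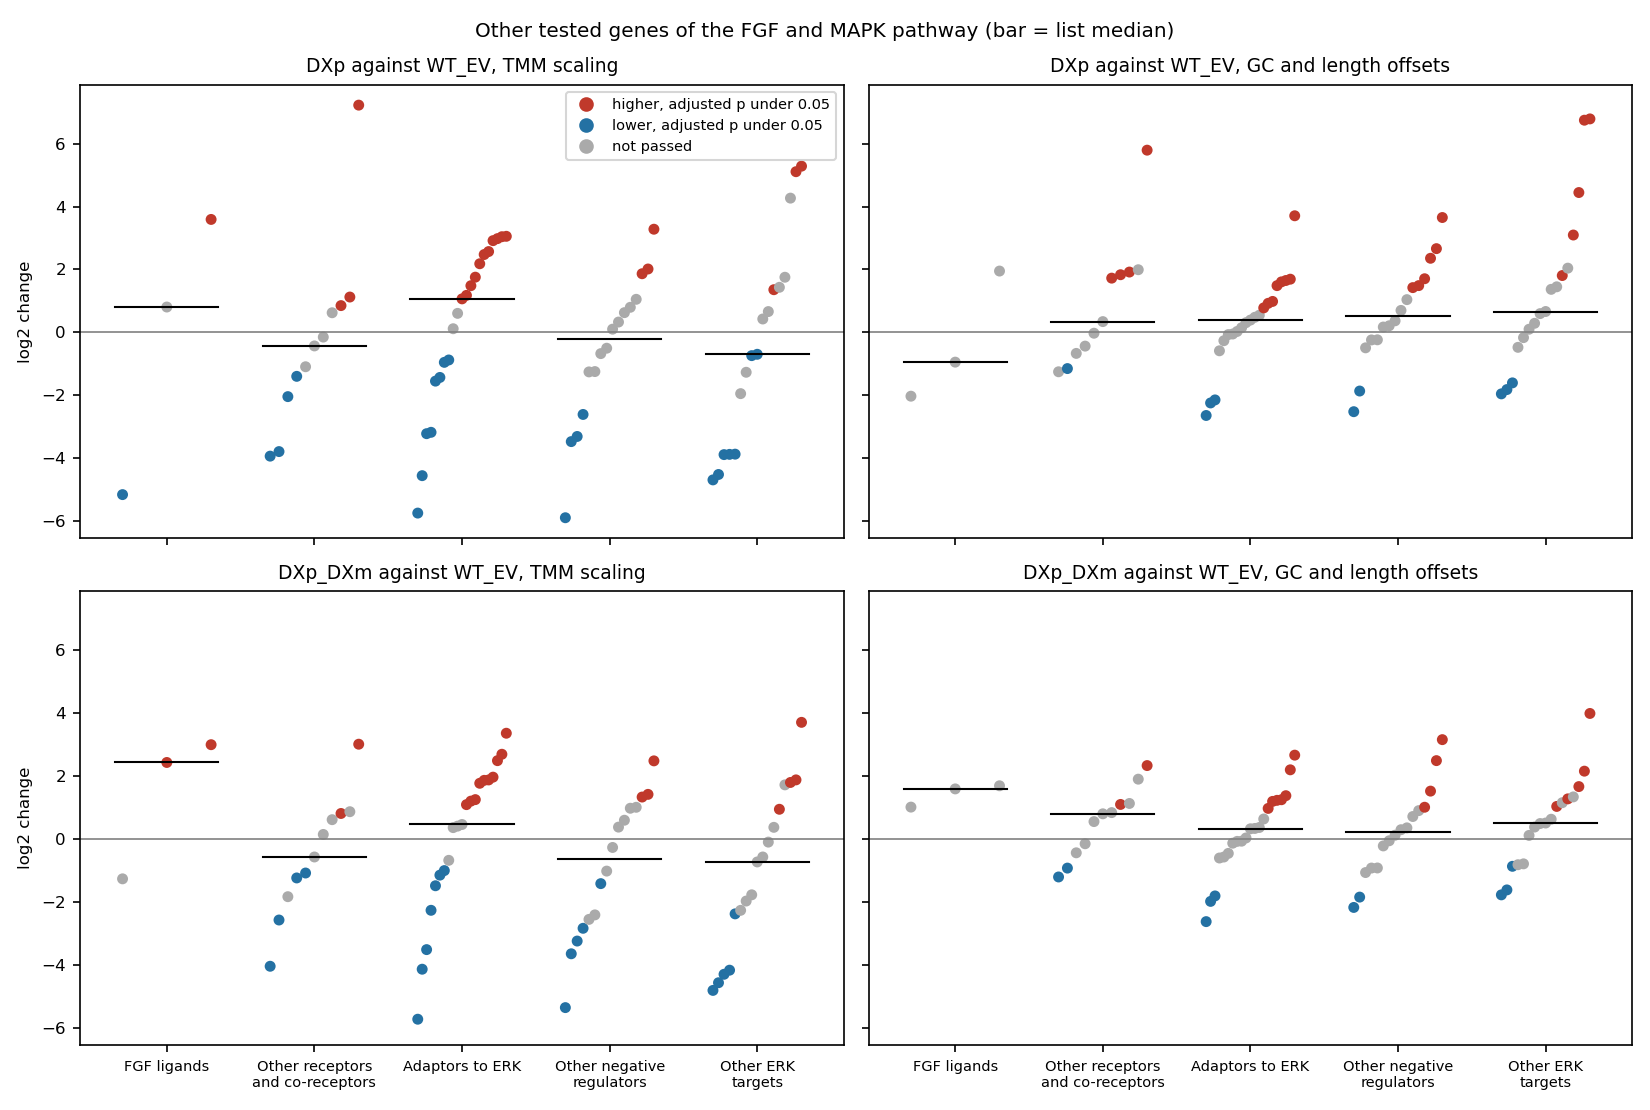
Log2 change of the tested genes of the 5 other pathway groups in DXp against WT_EV (top) and DXp_DXm against WT_EV (bottom), under TMM scaling (left) and with GC and length offsets (right). Each point is a gene, red where higher and blue where lower at an adjusted p under 0.05, and each bar a group median. Fewer genes are blue with offsets, 9 against 24 in DXp and 10 against 21 in DXp_DXm.

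Of 13 other receptors and co-receptors 11 were tested, with 3 higher and 4 lower in DXp, and 2 higher and 4 lower in DXp_DXm. With offsets 4 were higher and 1 lower in DXp, and 2 higher and 2 lower in DXp_DXm. Fgfr3, named after its values were seen, had 14.5 and 29.6 CPM in DXp_DXm and 45.8, 61.4 and 32.9 CPM in WT_EV, and its direction depended on the scaling: it was called lower in DXp_DXm under TMM (-1.08, edgeR adjusted p = 0.0367) and higher with offsets (1.10, edgeR adjusted p = 0.0246). Fgfr4 had 1.33 and 1.70 CPM in DXp, 1.16 and 1.65 CPM in DXp_DXm, and 26.5, 28.9 and 14.9 CPM in WT_EV. It fell by 3.94 in DXp and fell by 4.05 in DXp_DXm, and with offsets the values were -0.67, which did not pass, and -0.93 (edgeR adjusted p = 0.0478). Klb, the co-receptor beta-klotho, fell by 1.40 in DXp and fell by 1.24 in DXp_DXm (offsets -1.15 and -1.21). The syndecan gene Sdc1 fell by 2.05 in DXp and fell by 2.58 in DXp_DXm, with offset values of 0.34 and -0.44 that did not pass. The other syndecan gene named, Sdc2, had 26.7 and 5.29 CPM in DXp, 0.332 and 1.37 CPM in DXp_DXm, and 0.0563, 0.169 and 0.0600 CPM in WT_EV. It was called higher in both deletions (edgeR adjusted p = 8.50e-05 in DXp and edgeR adjusted p = 0.0190 in DXp_DXm), but WT_EV held only 1, 4 and 1 counts, the DXp libraries differed 5.06-fold, and the offset value in DXp_DXm did not pass (edgeR adjusted p = 0.133). Only 3 of 18 FGF ligand genes passed the filter on low counts. Fgf10 had 184 and 113 CPM in DXp, 104 and 92.4 CPM in DXp_DXm, and 9.23, 25.4 and 2.04 CPM in WT_EV. It rose by 3.59 in DXp and 3.0 in DXp_DXm, and the offset values of 1.95 and 1.69 did not pass (edgeR adjusted p = 0.0559 and edgeR adjusted p = 0.0973). Fgf3 had 0.307 and 0.0772 CPM in DXp (6 and 2 counts), 4.52 and 1.10 CPM in DXp_DXm, and 7.37, 12.2 and 0.720 CPM in WT_EV. It fell by 5.16 in DXp, with an offset value of -2.03 that did not pass. DXp_DXm overlapped WT_EV, and its log2 change of -1.27 did not pass (edgeR adjusted p = 0.297, offsets 1.59). Fgf2 stayed at or under 1.53 CPM in every library.

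The table that includes WT_clone was cut short as held, with 11512 complete rows against 55401 genes in the main table. Spred1 was the only member within that part, and the other 9 have no WT_clone value here for that reason. The scaling and the shares called in the 9-library fit rest on the shared genes alone, which are not a sample of all genes. On the CPM of the 11512 shared genes, scaled by TMM, Spred1 had 539 and 839 CPM in DXp, 253 and 268 CPM in DXp_DXm, 254 and 56.5 CPM in WT_clone, and 164, 154 and 134 CPM in WT_EV. The clones lay on either side of WT_EV, and clone 1 was as high as DXp_DXm. Spred1 was 4.44-fold higher in DXp than in WT_clone (log2 change 2.15, SE 0.56, edgeR adjusted p = 0.0117), where 40.2% of 3302 shared genes were called. That call was lost with offsets (1.18, edgeR adjusted p = 0.174, background 15.9%) and without DXp replicate 2 (1.79, edgeR adjusted p = 0.0682), and the value was 3.61 without clone 1 and 1.44 without clone 2. In DXp_DXm against WT_clone, where 25.0% of genes were called (6.94% with offsets), it did not pass (0.74, edgeR adjusted p = 0.337), but did without clone 1 (2.24, edgeR adjusted p = 0.00162). WT_clone against WT_EV, with 30.6% of genes called (25.1% with offsets), did not pass (0.045, edgeR adjusted p = 0.954), and without clone 1 it was lower (-1.39, edgeR adjusted p = 0.0162).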

How the data were processed

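Total RNA came from a Trizol extraction, and 2 stranded library kits are named without a library for either, per the labels' protocols. RNA selection is not given in the sources used here. Reads were checked with FastQC, aligned with STAR 2.7.9a and counted with featureCounts 2.0.1, per the submitters' processing notes. The deposited tables hold raw counts per gene (GRCm38), and the gene length in bases is the deposited one. Symbols, biotypes and GC content of the longest transcript came from GENCODE M21, and promoters from RefSeq. Replicate numbers are those after "rep" in the titles. The DXp titles also hold another number, in the reverse order. The WT_clone table was held in part. There were 0 unmapped sample columns.

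Low counts were removed by filterByExpr. The rest were TMM-scaled and compared in edgeR 4.0.16 (R 4.3.3, robust quasi-likelihood, group as the model term, all 7 libraries in 1 fit), adjusted by Benjamini-Hochberg over all 15331 genes tested, at a threshold of 0.05. SEs are the log2 change over the square root of F, and intervals are at 95%. Offsets were natural splines of GC content and log2 length (5 degrees of freedom each) fitted per library to log2 CPM with a prior count of 2. WT_clone was tested in a 9-library fit of 3302 shared genes. The procedure was also run on simulated counts, with changes put into some genes in DXp only. Those counts held no trend with GC content or length, so that run did not test the offsets on such a trend. Alternatives were DESeq2 1.42.0, its size factors, no filter, offsets, protein-coding genes other than histones, the 2 compared groups alone, a replicate block and each library left out.

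The 10 genes, pathway lists and marker lists were chosen with earlier results of these data known. Besides the 10 genes, up to 4 genes per pathway list and comparison with the lowest p were eligible to be named, from which the text takes examples. No label ties the WT_EV replicates to separate cultures, and p-values then cover only sample-to-sample spread, which may be technical. Samples with the same number after "rep" did not deviate together (correlations of -0.19, -0.057 and 0.079).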

Additional observations from a re-analysis of the deposited data

How the results depend on the processing

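Counting depth limits Etv4, Fgfr1 and Fgfr2 in the deletion libraries, where single libraries held as few as 8 to 15 counts, and 2 libraries per deletion limit every test. In DXp against WT_EV, leaving out each library gave 4 to 8 called genes of the 10 (7 with all libraries). Over all genes the same fits gave 9670 to 11384 calls. All genes called were 11079 in DXp, 10243 in DXp_DXm and 68 between the deletions. They were 6680 in DXp_DXm with offsets, and with a replicate block plus offsets 7201 in DXp and 5858 in DXp_DXm. The 10 genes gave 4 calls in DXp_DXm with offsets, with or without the block. Between the deletions the calls over all genes were 1181 with DESeq2, 1436 without the filter, 36 with offsets, 10 with the 2 groups alone and 2 to 480 without 1 library. The 10 genes then gave 3 calls with DESeq2, 4 without the filter and 0 to 1 without 1 library, and the 68 other pathway genes 7, 7 and 0 to 5, with 2 calls from the 2 groups alone. For all of these changes the cause was not tested.

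The replicate numbers, read after "rep", showed no pairing of the samples. A replicate block, as a fit sharing only numbers, gave 2 calls of the other pathway genes between the deletions, with or without offsets. The count over all genes in those fits is not given here, so these calls have no background beside them. The block left Dusp4 in DXp at -0.99 (edgeR adjusted p = 0.0533). A crossed pairing of the deletion replicates follows the other number in the DXp titles. This pairing, chosen after seeing the data, gave 1573 calls over all genes, 2 of the 10 and 9 of the pathway genes between the deletions. Which number, if either, marks a pairing is not given.

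Signs that turned with offsets were Fgfr1 (1.17), Spry4 (0.46) and Dusp4 (1.73) in DXp, Spred1 in DXp_DXm (-0.31) and Dusp6 between the deletions (-0.11). With block and offsets they were Fgfr1 (0.35), Spry4 (0.65) and Dusp4 (1.92) in DXp, Dusp4 (0.10) and Spred1 (-0.45) in DXp_DXm, and Dusp6 between the deletions (-0.68). Dusp6 between the deletions was -0.38 with the block and -0.31 with the crossed one. Spred1 in WT_clone against WT_EV was -0.48 with offsets and -0.14 with a replicate block, and in DXp against WT_clone 1.18 with offsets. Without 1 library it lay between 1.44 and 3.61 for DXp against WT_clone, 0.018 and 2.24 for DXp_DXm against WT_clone, and -1.39 and 0.77 for WT_clone against WT_EV.

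Signs that turned without 1 library, under TMM scaling, were in DXp those of Fgfr1 (-3.82 to 0.39), Spry4 (-1.75 to 0.56) and Dusp6 (-0.32 to 0.70), in DXp_DXm those of Spry2 (-1.03 to 0.26) and Dusp6 (-2.22 to 1.32), and between the deletions those of Fgfr2 (-2.18 to 1.53), Dusp6 (-2.51 to 1.10), Etv4 (-0.48 to 0.17) and Spred2 (-0.44 to 0.058). With offsets, in fits chosen after seeing the data, they were in DXp Fgfr1 (-1.83 to 1.98) and Spry4 (-0.85 to 1.09), in DXp_DXm Dusp4 (-0.30 to 0.13) and Dusp6 (-2.12 to 1.33), and between the deletions Fgfr2 (-2.25 to 1.26), Dusp6 (-2.67 to 0.78) and Etv4 (-0.65 to 0.0059).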
